A study of Mus musculus with 12 samples.

Results

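The genes described here handle adenosine in the mouse striatum: its 4 receptors (Adora1, Adora2a, Adora2b and Adora3), its equilibrative transporters Slc29a1 and Slc29a2, and the enzymes Entpd1, Nt5e, Adk and Ada. They were taken by name from the deposited FPKM table, where all 10 were found among 51912 genes. All 10 also passed the expression filter, which left 23453 genes for testing. The series holds 12 total RNA libraries, 3 in each of 4 groups, from striata taken at 10.5 weeks of age. R6/2-T is the R6/2 genotype with an adeno-associated virus (AAV) that carries a short hairpin RNA against TRAX (shTRAX). R6/2-C is the same genotype with a control AAV, and WT-T and WT-C are wild-type (WT) mice with the shTRAX and the control virus. R6/2 mice, here the line B6CBA-Tg(HDexon1)62Gpb/3J, express exon 1 of mutant human huntingtin, with a long CAG repeat, from its own human promoter, and are used as a model of Huntington's disease. They were bred to B6CBAFI/J, the strain the labels give for every library. All 4 groups had virus placed in both striata at 5 weeks of age, with 2 µl per site, so none was left uninjected. The sources used here give neither the viral serotype nor the promoter that drives the hairpin.

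Adenosine forms outside cells when Entpd1 (CD39) trims ATP and ADP to AMP and Nt5e (CD73) removes the last phosphate. Equilibrative transporters carry it across the membrane, adenosine kinase (Adk) returns it to AMP, and adenosine deaminase (Ada) turns it into inosine. In the striatum the A2A receptor sits mainly on indirect pathway medium spiny neurons, which also carry the dopamine D2 receptor, and it raises cAMP through the Golf protein and adenylyl cyclase 5. The A1 receptor is found on many neurons and lowers cAMP through Gi proteins. TRAX, encoded by Tsnax, is a partner of translin that was also described as a binding partner of the A2A receptor.

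Libraries held 32206236 to 57308866 fragments. Tsnax, the gene the hairpin targets, had 16.7, 15.2 and 17.7 FPKM in R6/2-T libraries against 75.4, 64.0 and 76.0 FPKM in R6/2-C libraries, and 13, 10.3 and 11.7 FPKM in WT-T libraries against 55.6, 56.6 and 64.7 FPKM in WT-C libraries. FPKM scales fragments for transcript length and library depth, but orders between genes given here hold for the deposited FPKM only. In WT-C libraries Adk had 2288 to 3190 fragments on 8526 exon bases. Adora1 had 8077 to 12028 fragments on 5785 exon bases, yet its mean FPKM was lower than that of Adk. Defining markers of medium spiny neurons were detected in all 12 libraries, with summed levels over 7 genes of 747 to 807 FPKM in R6/2-T, 983 to 1138 FPKM in R6/2-C, 1844 to 2435 FPKM in WT-T and 1865 to 2343 FPKM in WT-C libraries, and 4 cortical excitatory neuron markers summed to 2.21 to 16.8 FPKM. Summed levels of 5 choroid plexus markers spread widely, at 644, 757 and 1170 FPKM in R6/2-T and 78.4, 1218 and 111 FPKM in R6/2-C libraries. They were 795, 303 and 92.3 FPKM in WT-T and 219, 89.0 and 198 FPKM in WT-C libraries. All R6/2-T sums were thus above all WT-C sums, and their part in the results was not tested. Nothing in the labels states that libraries came from different animals, so the tests below weigh differences against library spread, which may be technical.

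In R6/2-T libraries Adora2a led by mean level with 61.7 ± 6.64 FPKM (SD, n = 3, as for all means below), and Adora3, at 0.613 ± 0.0169 FPKM, stood below Adora2b at 1.97 ± 0.369 FPKM. In WT-C libraries Adora2a led with 169 ± 16.4 FPKM, followed by Adk with 28 ± 4.28 and Adora1 with 21.9 ± 1.02 FPKM. Slc29a1 averaged 14.6 ± 0.872 FPKM and Entpd1 9.94 ± 2.49 FPKM. Nt5e (4.20 ± 0.446 FPKM), Slc29a2 (3.86 ± 0.377 FPKM), Adora3 (2.82 ± 0.906 FPKM) and Adora2b (1.91 ± 0.248 FPKM) came next, and Ada was lowest with 0.632 ± 0.119 FPKM. Nt5e and Slc29a2 did not differ beyond their spread in WT-C, and neither did Adora3 and Adora2b, whose libraries overlapped.

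**Figure D1:**
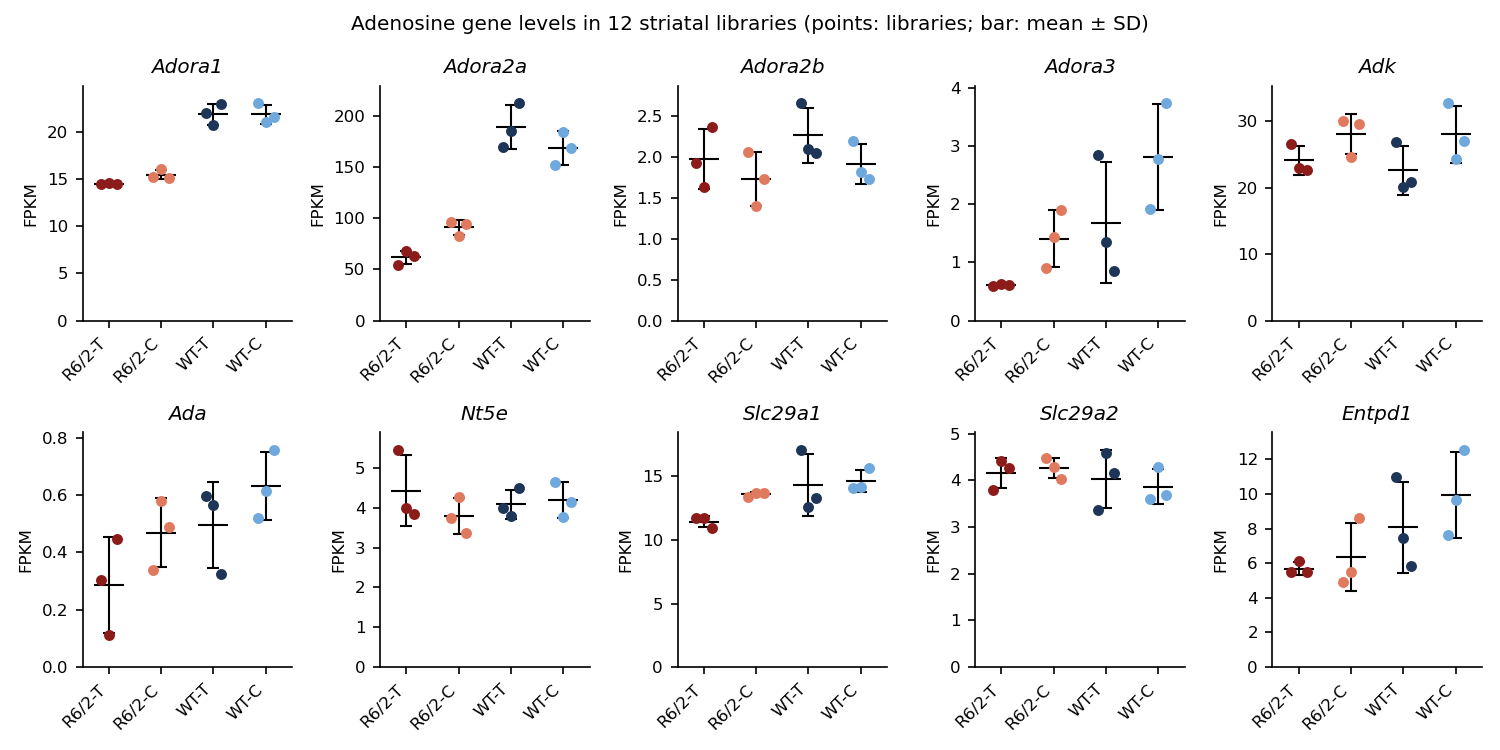
FPKM (y axis of each panel, starting at 0) of the 10 genes in R6/2-T, R6/2-C, WT-T and WT-C libraries. Points are libraries and bars the mean ± SD of 3. For Adora2a and Adora1 all 6 R6/2 libraries lie below all 6 WT libraries, and R6/2-T libraries of Adora2a (54.6 to 67.7 FPKM) lie below those of R6/2-C (82.7 to 96.4 FPKM).

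Adora2a, the A2A receptor and the gene with the highest mean FPKM of these, was lower in R6/2 with either virus. A gene is called here when its adjusted p from edgeR, a count-based test, was under 0.05 over all genes tested. Its level was 54.6, 67.7 and 62.9 FPKM in R6/2-T libraries, 96.4, 82.7 and 93.9 FPKM in R6/2-C libraries, 170, 185 and 212 FPKM in WT-T libraries, and 152, 185 and 169 FPKM in WT-C libraries. The R6/2-T libraries were lowest and no R6/2 library reached a WT library, while the WT groups overlapped. With the control virus Adora2a fell in R6/2 to 53.5% of the WT-C level (edgeR log2 change −0.90, SE 0.16, adjusted p = 0.00866). With shTRAX it fell to 30.6% of the WT-T level (log2 change −1.71, SE 0.16, edgeR adjusted p = 0.000164). In a bulk sample, fewer cells of a type and less RNA per cell cannot be told apart. The gene lies at chr10:75316877-75334784 on the plus strand (GRCm38), and its exons overlap those of no other annotated gene.

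Other genes of indirect pathway neurons were set beside Adora2a. Drd2, the dopamine D2 receptor, averaged 44.3 ± 0.969 FPKM in R6/2-T, 64.5 ± 10.7 FPKM in R6/2-C, 111 ± 12.1 FPKM in WT-T and 108 ± 7.84 FPKM in WT-C libraries. Penk, the enkephalin precursor, averaged 155 ± 3.45, 235 ± 24.9, 594 ± 76.9 and 691 ± 65.3 FPKM in R6/2-T, R6/2-C, WT-T and WT-C libraries. Both genes had the same order of genotypes as Adora2a, with their lowest mean in R6/2-T. The transcription factor Sp9 averaged 6.18 ± 0.642 FPKM in R6/2-T, 8.11 ± 1.04 FPKM in R6/2-C, 9.73 ± 2.74 FPKM in WT-T and 7.94 ± 2.08 FPKM in WT-C libraries, and it passed the edgeR test in neither genotype comparison (adjusted p = 0.0596 for R6/2-T against WT-T and 0.964 for R6/2-C against WT-C). The 4 measured indirect pathway markers, none of them at 0 fragments, summed to 224 to 229 FPKM in R6/2-T, 316 to 378 FPKM in R6/2-C, 680 to 819 FPKM in WT-T and 783 to 918 FPKM in WT-C libraries. Like Adora2a, the sum was lower in every R6/2 library than in any WT library and lower in R6/2-T than in R6/2-C. In WT, the ranges of the sum overlapped between viruses. Lower sums in R6/2-T than in R6/2-C were not particular to these genes, as the medium spiny neuron sums above show. Direct pathway markers, 5 genes summed, ran from 178 to 217 FPKM in R6/2-T and 238 to 290 FPKM in R6/2-C libraries. In WT-T they ran from 262 to 301 FPKM and in WT-C from 265 to 320 FPKM. Pdyn, Drd1 and Chrm4 were called lower in both genotype comparisons (edgeR). Beside them, 4.22% of all genes were called lower in R6/2-C against WT-C and 11.1% in R6/2-T against WT-T. Isl1 was called higher in R6/2-C than in WT-C, beside 4.87% of all genes, and Tac1 was called in neither comparison. Pdyn was also called lower in R6/2-T than in R6/2-C, beside 0.0171% of all genes (edgeR). The part of these markers in the Adora2a result was not tested. Gpr52, the fifth gene of the indirect pathway list, was not analysed here.

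The FPKM ratio of Adora2a to Drd2, Penk, Gpr6 (also an indirect pathway marker), Sp9 and Adora1 was taken within each library. Against Drd2 it was 1.39 ± 0.127 in R6/2-T, 1.44 ± 0.323 in R6/2-C, 1.71 ± 0.0304 in WT-T and 1.56 ± 0.0677 in WT-C libraries, and R6/2-C overlapped both WT groups. Against Penk it was 0.398 ± 0.0343 in R6/2-T, 0.388 ± 0.0171 in R6/2-C, 0.323 ± 0.0582 in WT-T and 0.245 ± 0.0252 in WT-C libraries, and every R6/2-C ratio was above every WT-C ratio. Against Gpr6 it was 2.92 ± 0.628 in R6/2-T, 3.16 ± 0.621 in R6/2-C, 3.71 ± 0.191 in WT-T and 3.66 ± 0.124 in WT-C libraries. There R6/2-C overlapped both WT groups, and R6/2-T overlapped WT-C but not WT-T. Against Sp9 it was 10.1 ± 1.46 in R6/2-T, 11.3 ± 1.45 in R6/2-C, 20.3 ± 4.61 in WT-T and 21.8 ± 3.35 in WT-C libraries. Against Adora1 it was 4.25 ± 0.452 in R6/2-T, 5.88 ± 0.645 in R6/2-C, 8.63 ± 0.799 in WT-T and 7.72 ± 1.09 in WT-C libraries, without overlap between R6/2 and WT. These ratios are descriptions without a test, since an exact two-sided permutation test of 3 libraries against 3 cannot go below p = 0.1.

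**Figure D2:**
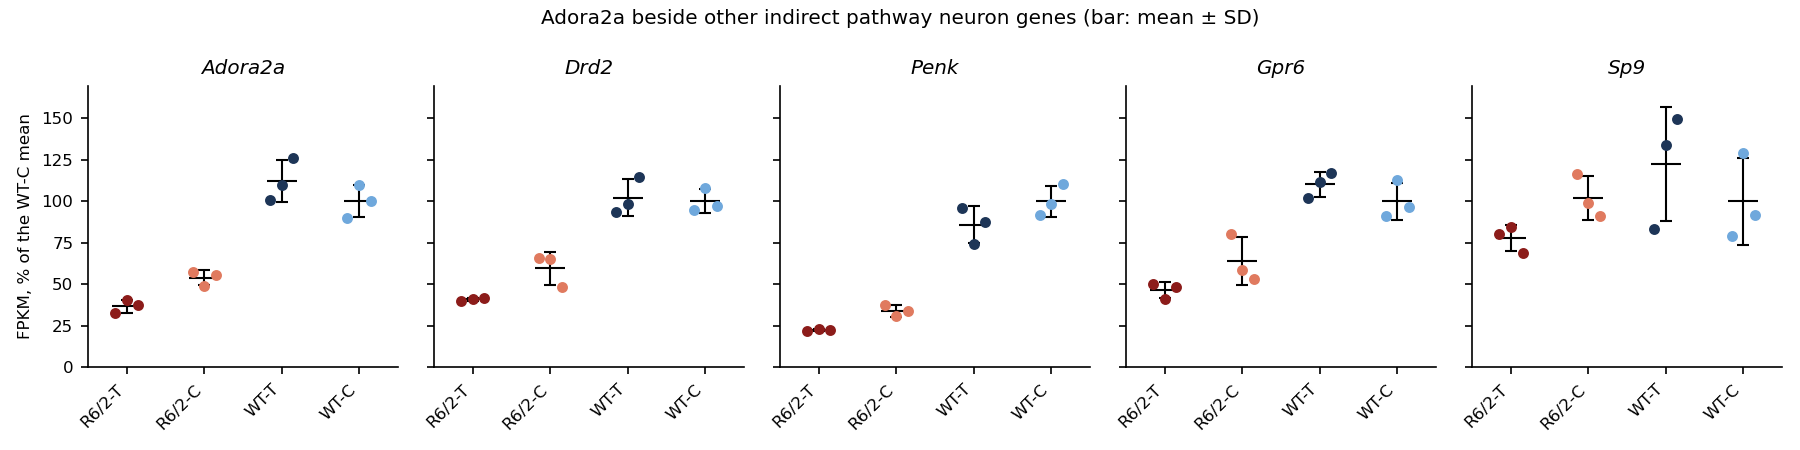
FPKM of Adora2a, Drd2, Penk, Gpr6 and Sp9 as a percentage of the WT-C mean of each gene (y axis), by group. Points are libraries and bars the mean ± SD of 3. R6/2-T libraries are below R6/2-C libraries for all 5 genes, and Sp9 overlaps between R6/2-C and both WT groups.

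Within R6/2, Adora2a was lower with shTRAX than with the control virus, without overlap, but it did not pass the edgeR test (log2 change −0.55, SE 0.16, unadjusted p = 0.00504, adjusted p = 0.114). DESeq2 called it (log2 change −0.54, adjusted p = 0.0377), and so did edgeR on recovered fragments (log2 change −0.63, adjusted p = 0.0485). Within WT the difference had the opposite sign and the libraries overlapped (WT-T against WT-C, log2 change 0.25, SE 0.16, edgeR adjusted p = 0.892). The interaction, which is the shTRAX difference in R6/2 minus that in WT, was −0.81 for Adora2a (SE 0.22, unadjusted p = 0.00406, edgeR adjusted p = 0.353). Both R6/2-T comparisons use the same R6/2-T libraries, so a low value there enters each of them. Between R6/2-T and R6/2-C, Adora1 (log2 change −0.057), Slc29a1 (−0.17) and Adora3 (−1.15) also had no overlap, and edgeR called none of them. The share of all genes without overlap was not taken, so lack of overlap is a description only.

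Over 13507 named genes, the 5 with the log2 CPM (counts scaled for library depth) most like that of Adora2a over the 12 libraries were Sept5, Pde1b, Rasd2, Ctxn1 and Ddn, with Pearson r of 0.990 to 0.997. Sept5 is a septin, Pde1b a calmodulin-dependent phosphodiesterase, Rasd2 the striatal GTPase Rhes, and Ddn the dendritic protein dendrin. After the group means were removed, r remained at 0.857 (Rasd2) to 0.957 (Sept5). The genes share the group differences of these libraries and were picked for the highest r on the same libraries, so these values are descriptions.

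Adora1, the A1 receptor, was lower in R6/2 by a smaller amount. It had 14.5, 14.6 and 14.5 FPKM in R6/2-T libraries, 15.2, 16.1 and 15.2 FPKM in R6/2-C libraries, 22.0, 20.7 and 23.0 FPKM in WT-T libraries, and 23.1, 21.1 and 21.6 FPKM in WT-C libraries. The 2 genotypes did not overlap with either virus. Adora1 fell to 67.7% of the WT-C level with the control virus (log2 change −0.56, SE 0.09, edgeR adjusted p = 0.0039) and to 63.5% of the WT-T level with shTRAX (log2 change −0.65, SE 0.09, edgeR adjusted p = 0.000707). Between viruses the difference was −0.057 in R6/2 (SE 0.085, edgeR adjusted p = 0.748) and 0.035 in WT (SE 0.085, edgeR adjusted p = 0.999). Small as it was, the R6/2 libraries did not overlap between viruses. Sums of the 7 medium spiny neuron markers, given above, were also lower in every R6/2 library than in any WT library. Of these, 4 of 7 were called lower in R6/2-C than in WT-C (edgeR), beside 4.22% of all genes. In R6/2-T against WT-T 5 of 7 were called lower, beside 11.1% of all genes. The part of these markers in the Adora1 result was not tested. In exons, 1162 of the 5785 bases of Adora1 overlap Mybph on the opposite strand, which was listed at 0.0395 to 0.998 FPKM, and the sources used here do not state whether counting used the strand.

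The genes with the most similar log2 CPM to Adora1 were Sema7a, Ccm2, Rgs9, Ivns1abp and Scn4b, with r of 0.978 to 0.994 over 12 libraries. Rgs9, a striatal regulator of G protein signalling, and the sodium channel subunit Scn4b are on the fixed medium spiny neuron list. Without the group means r was 0.507 (Scn4b) to 0.930 (Sema7a).

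RefSeq windows on GRCm38.p6 ran from 250 bases before to 50 bases after a transcript start. There were 19 in all, for 9 of the 10 genes, and none for Adora2a. The windows of Adora1 are shown because it was called in both genotype comparisons and has 2 starts that differ in base composition. Capitals mark matches, on either strand, to the GC box GGGCGG, the cAMP response element core TGACG (the full element is TGACGTCA, which contains the core), and the ETS and PU.1 core GAGGAAGT.
Adora1 start at chr1:134235408-134235707, minus strand: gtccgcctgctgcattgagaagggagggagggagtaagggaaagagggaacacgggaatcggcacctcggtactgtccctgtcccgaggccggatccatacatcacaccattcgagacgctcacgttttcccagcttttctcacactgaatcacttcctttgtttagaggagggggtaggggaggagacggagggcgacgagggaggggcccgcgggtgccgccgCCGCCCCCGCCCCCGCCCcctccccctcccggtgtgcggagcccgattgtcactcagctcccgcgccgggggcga
Adora1 start at chr1:134234807-134235106, minus strand: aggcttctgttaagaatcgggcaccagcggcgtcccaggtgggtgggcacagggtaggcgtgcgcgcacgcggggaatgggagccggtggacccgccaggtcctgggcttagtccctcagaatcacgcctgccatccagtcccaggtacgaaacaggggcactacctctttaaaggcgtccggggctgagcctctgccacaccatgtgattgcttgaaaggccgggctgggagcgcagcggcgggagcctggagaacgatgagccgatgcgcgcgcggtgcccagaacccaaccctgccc
The first window holds 3 GC boxes in a row and the second none. Over 32851 promoters of the same length, 35.7% hold a GC box, 20.8% the TGACG core, 3.2% the GAGGAAGT core and 1.79% the full cAMP response element. A GC box was found in 12 of the 19 windows, which belong to 7 of the 9 genes, and the full cAMP response element in none. A match is a description of letters and no absence or presence of a factor can be read from it.

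Adora3 and Entpd1 had their lowest mean in R6/2-T, and their libraries spread widely within the other groups. For Entpd1 the mean was 5.69 ± 0.357 FPKM in R6/2-T and 6.36 ± 1.99 FPKM in R6/2-C. Its log2 change between these 2 groups was only −0.079 (SE 0.26, edgeR adjusted p = 0.900). The A3 receptor gene Adora3 had 0.597, 0.630 and 0.611 FPKM in R6/2-T libraries, 0.907, 1.43 and 1.90 FPKM in R6/2-C libraries, 2.85, 1.36 and 0.855 FPKM in WT-T libraries, and 1.93, 2.79 and 3.74 FPKM in WT-C libraries. R6/2-T was below every other library, while R6/2-C and WT-T overlapped. Adora3 was called lower in R6/2-T than in WT-T (log2 change −1.44, SE 0.39, edgeR adjusted p = 0.0225), at 36.9% of the WT-T level. The call was lost without any 1 of the R6/2-T libraries or without WT-T replicate 1, at adjusted p of 0.0599 to 0.0814, with a log2 change of −0.91 in the last case. It was also lost with each of the 3 limma settings, at adjusted p of 0.0518 to 0.0895, and kept under 8 of 15 alternatives.

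Adora3 did not pass in R6/2-C against WT-C (log2 change −0.91, SE 0.38, edgeR adjusted p = 0.167). Nor did it pass in R6/2-T against R6/2-C (log2 change −1.15, SE 0.39, edgeR adjusted p = 0.153), although DESeq2 called it there (adjusted p = 0.0424) and the libraries did not overlap. It lies at chr3:105870858-105908926, and 779 of its 3729 exon bases overlap Tmigd3 on the same strand. Tmigd3 had 0 to 4 fragments per library.

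Entpd1, the CD39 ectonucleotidase, had 5.49, 6.10 and 5.49 FPKM in R6/2-T libraries, 4.93, 5.52 and 8.63 FPKM in R6/2-C libraries, 11.0, 7.48 and 5.82 FPKM in WT-T libraries, and 7.61, 9.65 and 12.6 FPKM in WT-C libraries. R6/2-T overlapped R6/2-C, R6/2-C overlapped both WT groups, and the WT groups overlapped each other. The log2 change was −0.88 (SE 0.26, edgeR adjusted p = 0.0561) in R6/2-C against WT-C and −0.69 (SE 0.26, edgeR adjusted p = 0.0764) in R6/2-T against WT-T. DESeq2 called both (adjusted p = 0.0083 and 0.035), edgeR called the first without WT-C replicate 1 (adjusted p = 0.0489) and the second without WT-T replicate 3 (adjusted p = 0.0383) and on recovered fragments (log2 change −0.77, adjusted p = 0.0299).

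Microglia are known to express both genes, and 7 microglia markers (Cx3cr1, P2ry12, Tmem119, Csf1r, C1qa, C1qb and Aif1) were summed beside them. The sums were 140.1, 184 and 202 FPKM in R6/2-T libraries, 216, 305 and 629 FPKM in R6/2-C libraries, 991, 494 and 279 FPKM in WT-T libraries, and 326, 594 and 823 FPKM in WT-C libraries. In R6/2-C, WT-T and WT-C the library order of the sums was also that of Adora3 and that of Entpd1. C1qa and C1qb weighed most in these groups, with 521 and 287 of the 991 FPKM in WT-T replicate 1. Aif1, Csf1r and Cx3cr1 had the same library order there by FPKM. P2ry12 averaged 39.3 FPKM in R6/2-T and 28.1 FPKM in R6/2-C, the reverse of the sums, with overlap. Cx3cr1 had 14.3 FPKM in R6/2-T replicate 1 from 2394 fragments, but 2.57 FPKM in WT-C replicate 3 from 11289 fragments. No marker was at 0 fragments in any library. Of the 7 markers, 5 were called lower in R6/2-T than in WT-T (edgeR), beside 11.1% of all genes, and none was called in the other comparisons. Unadjusted p was under 0.05 for 5 of them in R6/2-T against R6/2-C, beside 19.2% of all genes, and for 2 in the interaction, beside 11.7%. It was under 0.05 for none in R6/2-C against WT-C or WT-T against WT-C. Their part in the Adora3 and Entpd1 results was not tested.

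**Figure D3:**
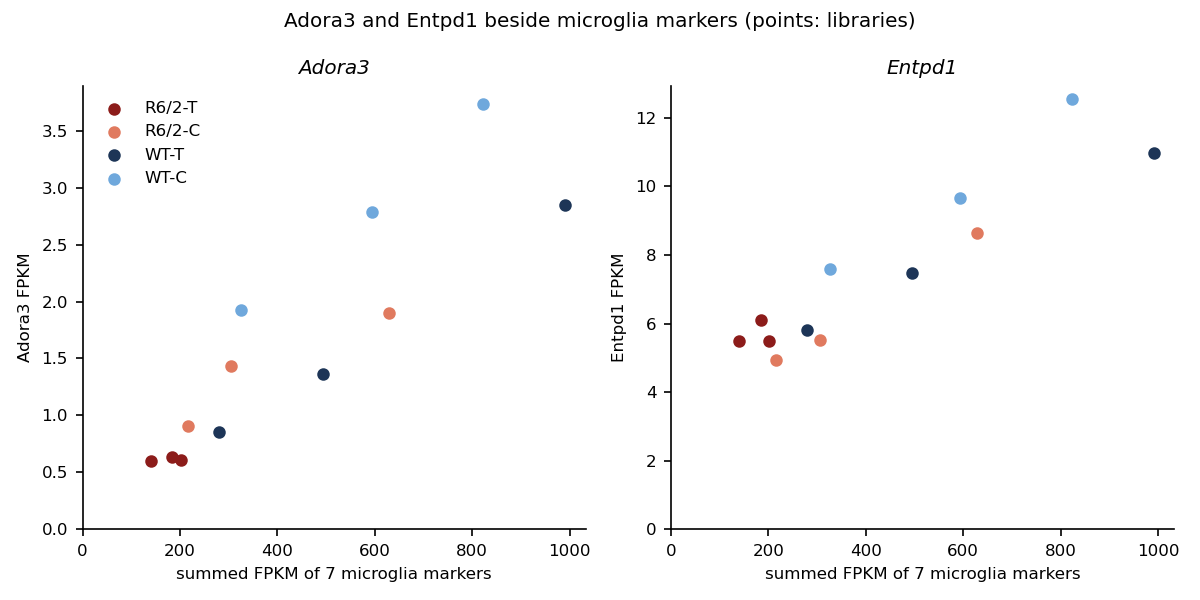
FPKM of Adora3 (left) and Entpd1 (right) on the y axis against the summed FPKM of 7 microglia markers on the x axis, 1 point per library, coloured by group. The 3 R6/2-T libraries lie at the low end, with sums of 140.1 to 202 FPKM, and the WT-C library with 823 FPKM has the highest level of both genes.

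The promoter windows of both genes are shown because their levels shared a library order.
Adora3 start at chr3:105904171-105904470, plus strand: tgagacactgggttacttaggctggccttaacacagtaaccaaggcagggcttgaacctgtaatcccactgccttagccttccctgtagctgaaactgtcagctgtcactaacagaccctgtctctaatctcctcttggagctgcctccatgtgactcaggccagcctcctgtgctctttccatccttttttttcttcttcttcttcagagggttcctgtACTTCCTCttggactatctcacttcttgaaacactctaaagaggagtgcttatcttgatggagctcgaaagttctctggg
Entpd1 start at chr19:40612116-40612415, plus strand: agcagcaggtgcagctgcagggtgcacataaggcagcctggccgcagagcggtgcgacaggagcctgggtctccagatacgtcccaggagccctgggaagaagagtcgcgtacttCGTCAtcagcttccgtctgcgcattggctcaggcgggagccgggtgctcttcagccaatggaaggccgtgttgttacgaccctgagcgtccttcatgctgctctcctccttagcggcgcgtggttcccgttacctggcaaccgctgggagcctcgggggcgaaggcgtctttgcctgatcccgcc
Entpd1 start at chr19:40659520-40659819, plus strand: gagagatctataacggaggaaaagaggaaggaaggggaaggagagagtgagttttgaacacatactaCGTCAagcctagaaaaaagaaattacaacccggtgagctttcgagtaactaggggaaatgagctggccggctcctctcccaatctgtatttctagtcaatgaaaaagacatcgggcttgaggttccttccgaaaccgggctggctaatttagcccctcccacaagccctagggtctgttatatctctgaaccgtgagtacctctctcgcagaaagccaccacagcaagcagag
The Adora3 window was the only window of the 19 with the GAGGAAGT core, and each Entpd1 window holds 1 TGACG core.

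Adora2b, the low-affinity A2B receptor, had 1.92, 1.63 and 2.37 FPKM in R6/2-T libraries, 2.07, 1.41 and 1.73 FPKM in R6/2-C libraries, 2.66, 2.10 and 2.05 FPKM in WT-T libraries, and 2.2, 1.81 and 1.73 FPKM in WT-C libraries. All groups overlapped, and its log2 changes lay between −0.21 and 0.26 in the 4 pairwise comparisons. It rested on 98 to 236 fragments per library.

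The transporter Slc29a1 (ENT1), an equilibrative carrier of adenosine, had 11.7, 11.7 and 10.9 FPKM in R6/2-T libraries, 13.4, 13.7 and 13.7 FPKM in R6/2-C libraries, 17.1, 12.6 and 13.3 FPKM in WT-T libraries, and 14.1, 14.2 and 15.6 FPKM in WT-C libraries. R6/2-T was below all other libraries. It was called lower in R6/2-T than in WT-T (log2 change −0.33, SE 0.10, edgeR adjusted p = 0.0311), which is 79.5% of the WT-T level. That call was lost without R6/2-T replicate 2 or 3 or WT-T replicate 1 or 3, with those 2 groups alone and with each of the 3 limma settings, at adjusted p of 0.0644 to 0.120, and kept under 7 of 15 alternatives. It was not called in R6/2-C against WT-C (log2 change −0.20, SE 0.10, edgeR adjusted p = 0.222) or in R6/2-T against R6/2-C (log2 change −0.17, SE 0.10, edgeR adjusted p = 0.358). Of its 4008 exon bases 275 overlap Gm17080 on the opposite strand, which had 0 to 3 fragments per library. Endothelial markers, 5 genes summed, ran from 47.5 to 57.9 FPKM in R6/2-T, 60.4 to 65.7 FPKM in R6/2-C, 72.4 to 79.5 FPKM in WT-T and 78.8 to 85.3 FPKM in WT-C libraries, none at 0 fragments. Of these 5 markers 3 (Cldn5, Pecam1 and Slc2a1) were called lower in R6/2-T than in WT-T, beside 11.1% of all genes. In R6/2-C against WT-C, where Slc29a1 was not called, 3 (Kdr, Pecam1 and Flt1) were called lower, beside 4.22% of all genes. The part of the endothelial markers in the Slc29a1 result was not tested.

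Slc29a2 (ENT2) had 3.80, 4.41 and 4.26 FPKM in R6/2-T libraries, 4.47, 4.28 and 4.03 FPKM in R6/2-C libraries, 3.36, 4.58 and 4.15 FPKM in WT-T libraries, and 3.60, 4.29 and 3.69 FPKM in WT-C libraries. The groups overlapped throughout, and its log2 changes in the 4 pairwise comparisons were 0.014 to 0.096.

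Nt5e, Adk and Ada were called by none of edgeR, DESeq2 and limma in any comparison, with 0 of them at an unadjusted p under 0.05 in edgeR. Nt5e (CD73), the enzyme that forms adenosine from AMP, had 5.46, 4.0 and 3.85 FPKM in R6/2-T libraries, 3.74, 4.28 and 3.38 FPKM in R6/2-C libraries, 3.99, 3.79 and 4.50 FPKM in WT-T libraries, and 4.66, 3.77 and 4.16 FPKM in WT-C libraries. Its highest library was R6/2-T replicate 1, and all groups overlapped. The log2 change was 0.27 in R6/2-T against R6/2-C (SE 0.17, edgeR adjusted p = 0.416) and −0.14 in R6/2-C against WT-C (SE 0.17, edgeR adjusted p = 0.640).

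Adk, the kinase that clears adenosine and in the adult brain is mainly astrocytic, had 26.6, 23.0 and 22.7 FPKM in R6/2-T libraries, 30.0, 24.6 and 29.5 FPKM in R6/2-C libraries, 26.8, 20.1 and 20.9 FPKM in WT-T libraries, and 32.7, 24.3 and 27.1 FPKM in WT-C libraries. The shTRAX groups had the lower mean in both genotypes, with overlap. Its log2 change was −0.17 in R6/2-T against R6/2-C (SE 0.14, edgeR adjusted p = 0.532) and −0.29 in WT-T against WT-C (SE 0.14, unadjusted p = 0.0544, edgeR adjusted p = 0.776). Between genotypes it was −0.049 in R6/2-C against WT-C and 0.077 in R6/2-T against WT-T. Astrocyte markers, 8 genes summed, ran from 637 to 665 FPKM in R6/2-T, 571 to 595 FPKM in R6/2-C, 776 to 793 FPKM in WT-T and 734 to 885 FPKM in WT-C libraries.

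Ada, which deaminates adenosine, was the least abundant of the 10, with 8 to 73 fragments per library. It had 0.303, 0.111 and 0.446 FPKM in R6/2-T libraries, 0.339, 0.578 and 0.488 FPKM in R6/2-C libraries, 0.596, 0.567 and 0.323 FPKM in WT-T libraries, and 0.521, 0.616 and 0.758 FPKM in WT-C libraries. All neighbouring groups overlapped, and the log2 change in R6/2-C against WT-C was −0.44 (SE 0.42, edgeR adjusted p = 0.560).

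Over the 10 genes, 2 were called lower in R6/2-C than in WT-C, against 9.09% of all 23453 genes called in either direction, 4.22% called lower and 4.87% called higher. Their median log2 change was −0.32, beside −0.02 over all genes. In R6/2-T against WT-T, 4 of 10 were called lower, against 22.6% of all genes called in either direction, 11.1% called lower and 11.5% called higher, and the median was −0.49 beside −0.05 over all genes. The Adora1 and Adora2a calls were present in both genotype comparisons and held under all 15 alternatives of each.

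The shTRAX comparisons gave 0 calls among the 10 with edgeR, where 0.0682% of all genes were called in R6/2-T against R6/2-C (0.0171% lower and 0.0512% higher) and 0.00426% in WT-T against WT-C. At an unadjusted p under 0.05 there were 2 members (Adora2a and Adora3, both lower) in R6/2, beside 19.2% of all genes (9.29% lower), and 0 in WT, beside 6.45%. DESeq2 called those 2 in R6/2, beside 7.18% of all genes (2.78% lower), and 0 in WT, beside 0.486%. With limma 0 were called in both. The members' median log2 change was −0.12 in R6/2 and −0.0099 in WT, beside −0.03 and 0.00061 over all genes. In the interaction edgeR called 0 of the 10, beside 0.00426% of all genes, with 1 (Adora2a) at an unadjusted p under 0.05, beside 11.7%. Neither DESeq2, which called 0.81% of all genes there, nor limma called any member.

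**Figure D4:**
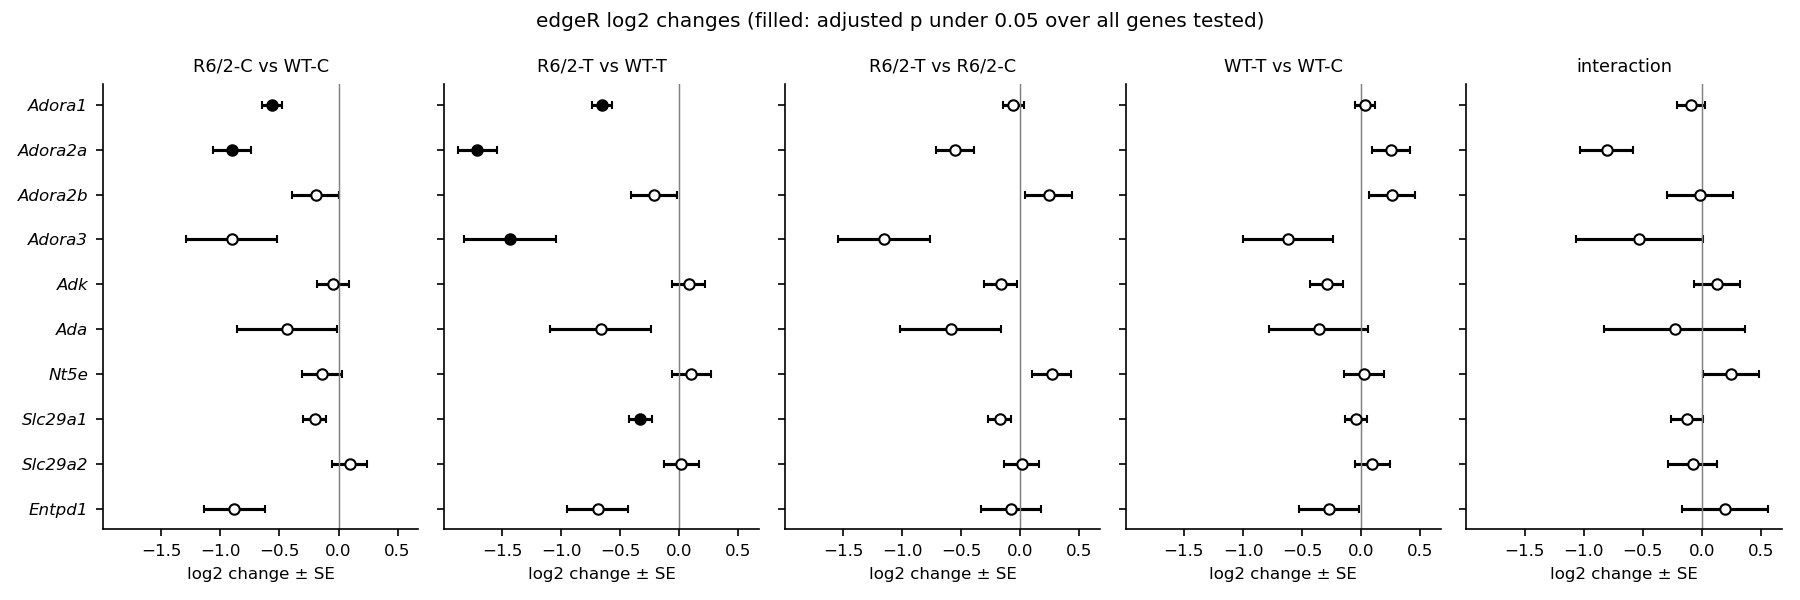
edgeR log2 change (x axis) with its SE for the 10 genes in each comparison, the interaction included. Filled points had an adjusted p under 0.05 over all genes tested. Filled points are Adora1 and Adora2a in R6/2-C against WT-C, and these with Adora3 and Slc29a1 in R6/2-T against WT-T.

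Genes next to these 10 in purine handling were taken as lists. Beside the list counts below, edgeR called 9.09% of all genes in R6/2-C against WT-C (median log2 change −0.02). In R6/2-T against WT-T it called 22.6% (median −0.05). Of 23 other purine enzymes 21 were tested, and edgeR called 2 higher and 3 lower in R6/2-C against WT-C (median log2 change −0.12). Hprt, the purine salvage enzyme, averaged 69.0 ± 6.04 FPKM in R6/2-T, 77.4 ± 6.57 FPKM in R6/2-C, 49.3 ± 4.13 FPKM in WT-T and 51.8 ± 2.13 FPKM in WT-C libraries. It rose in R6/2 with either virus (log2 change 0.53 in R6/2-C against WT-C, adjusted p = 0.00844, and 0.47 in R6/2-T against WT-T, adjusted p = 0.0054, edgeR). Gda, guanine deaminase, rose too (log2 change 0.69, adjusted p = 0.0201, and 0.88, adjusted p = 0.00261, edgeR), although the first call was lost without R6/2-C replicate 3, WT-C replicate 1 or WT-C replicate 3, at adjusted p of 0.0629 to 0.0762.

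The enzymes called lower in R6/2-C than in WT-C were the AMP nucleotidase Nt5c1a, Xdh and Ampd3. Nt5c1a averaged 1.35 ± 0.285 FPKM in R6/2-C and 2.56 ± 0.365 FPKM in WT-C libraries. With shTRAX it averaged 2.33 ± 0.501 FPKM in R6/2-T and 2.90 ± 0.570 FPKM in WT-T libraries, which overlapped, and it was not called there (edgeR). Xdh, xanthine dehydrogenase, averaged 3.11 ± 0.968 FPKM in R6/2-C and 5.87 ± 1.23 FPKM in WT-C libraries. The calls of Nt5c1a and Xdh were each lost without R6/2-C replicate 1 or 3 or any WT-C library, with a replicate block and with those 2 groups alone. Nt5c1a was also lost with recovered fragments and Xdh with each of the 3 limma settings. Of 15 alternatives, 7 kept the Nt5c1a call and 5 the Xdh call, and the adjusted p where lost was 0.0503 to 0.121. In R6/2-T against WT-T, 4 of 21 rose and 4 fell (median −0.14), among them the ectonucleotidase Entpd3 (log2 change 0.60, SE 0.13, edgeR adjusted p = 0.00958) and purine nucleoside phosphorylase Pnp (log2 change −0.81, SE 0.18, edgeR adjusted p = 0.0106, and 0.0515 without R6/2-T replicate 1). In the shTRAX comparisons and the interaction edgeR called 0 of 21, with an unadjusted p under 0.05 for 3 in R6/2, 1 in WT and 0 in the interaction. Over all genes tested that share was 19.2% in R6/2, 6.45% in WT and 11.7% in the interaction.

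Of 5 other nucleoside transporters, only Slc28a1 was called, in both genotype comparisons. It had 0 to 1 fragments per library in R6/2-T, 0 to 4 in R6/2-C, 5 to 10 in WT-T and 1 to 6 in WT-C, so no fold is given. Its call in R6/2-C against WT-C was lost without R6/2-C replicate 1 or 3 or WT-C replicate 1 or 2 (adjusted p of 0.0532 to 0.0630). That in R6/2-T against WT-T was lost without R6/2-T replicate 1 or 2 or any WT-T library, with no expression filter, with a replicate block and with those 2 groups alone (adjusted p of 0.0590 to 0.117). Of 15 genes of ATP release and P2 receptors, edgeR called none in R6/2-C against WT-C (4 at an unadjusted p under 0.05, list median −0.38) and 4 in R6/2-T against WT-T (list median −0.50). The last count stood beside 22.6% of all genes called in that comparison. There the UDP receptor P2ry6 fell (log2 change −1.61, SE 0.38, edgeR adjusted p = 0.0124, and 0.0579 without R6/2-T replicate 1). P2ry6 averaged 1.97 ± 0.567 FPKM in R6/2-T and 5.94 ± 2.18 FPKM in WT-T libraries. P2ry2 (log2 change −1.04) and P2ry13 (log2 change −0.84) also fell, and the ADP receptor P2ry1 rose (log2 change 0.64). These 3 calls were each lost without R6/2-T replicate 1 or 2 or WT-T replicate 1 or 2, and P2ry13 also without R6/2-T replicate 3 and P2ry2 without WT-T replicate 3. With limma on log2(FPKM + 0.1) without a filter all 3 were lost, P2ry13 also with the other 2 limma settings, and P2ry2 with a replicate block (adjusted p = 0.0511). P2ry12, which is on this list and on the microglia list, was not called (log2 change −0.15).

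Of 13 genes of A2A receptor coupling and its partner receptors, 4 fell and none rose in R6/2-C against WT-C, while the list's median was 0.024. They were the cannabinoid receptor Cnr1 (log2 change −1.23), adenylyl cyclase Adcy5 (−1.25), the phosphoprotein DARPP-32 encoded by Ppp1r1b (−1.18) and Drd2 (−0.79, with an adjusted p of 0.0544 from those 2 groups alone). Adcy5 averaged 78.7 ± 1.09 FPKM in R6/2-T, 87.9 ± 8.86 FPKM in R6/2-C, 247 ± 50.7 FPKM in WT-T and 202 ± 16.8 FPKM in WT-C libraries. Gnal, which encodes the Golf subunit that couples the receptor to Adcy5, was not called in either genotype comparison (log2 change −0.16, edgeR adjusted p = 0.549, and −0.055, adjusted p = 0.832). In R6/2-T against WT-T 5 fell and Tsnax alone rose (log2 change 0.49, SE 0.10, edgeR adjusted p = 0.00757, and 0.0504 without R6/2-T replicate 3). Drd2 fell there by 1.35, Ppp1r1b by 1.92, Adcy5 by 1.69 and Cnr1 by 1.07 on the log2 scale. Tsnax was the only gene of this list called in the shTRAX comparisons (log2 change −2.07 in R6/2 and −2.32 in WT), and none was called in the interaction. At an unadjusted p under 0.05 (edgeR) there were 6 of the 13 in R6/2, beside 19.2% of all genes, and 3 in WT, beside 6.45%, with Tsnax in both counts. In the interaction there were 3, beside 11.7%. Of 5 G protein subunits of A1 receptor coupling, Gnai1 alone was called, higher in both genotype comparisons (log2 change 0.44, edgeR adjusted p = 0.0458, and 0.40, adjusted p = 0.0373), and it lost the first call without R6/2-C replicate 1 or 3 or any WT-C library and the second without any library but WT-T replicate 3. With RLE size factors the first adjusted p was 0.0612, and both calls were lost with no expression filter (0.0625 and 0.0589) and with a replicate block (0.0920 and 0.0725), the first also with those 2 groups alone (0.113). In the shTRAX comparisons and the interaction edgeR called no gene of the transporter, P2 and G protein lists, with at most 2 genes of a list at an unadjusted p under 0.05.

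**Figure D5:**
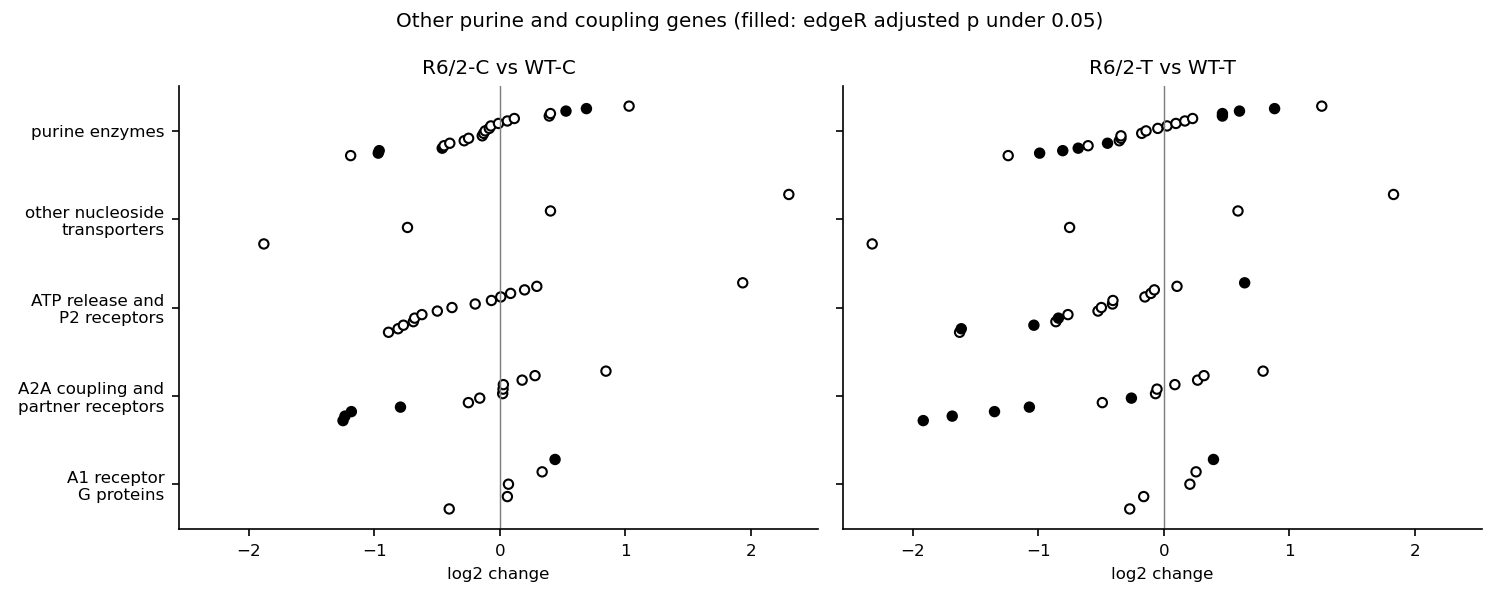
edgeR log2 changes (x axis) of the other purine and coupling genes, by list (rows), in R6/2-C against WT-C and R6/2-T against WT-T. Each point is a gene tested, filled where the adjusted p was under 0.05. Tsnax and Slc28a1 are not drawn. The A2A coupling list has 4 filled points on the lower side in the first comparison, while purine enzymes have filled points on both sides.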

How the data were processed

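Striatal total RNA libraries were made with the TruSeq Stranded Total RNA Gold kit from RNA extracted with TRIzol or miRNeasy, per the labels' protocols. Per the submitters' processing notes, bcl2fastq 2.20, HISAT2 (no version given) and GRCm38 were used. The deposited StringTie values are estimated counts per gene, which are whole, so rounding changed nothing. They total 131783370 to 229332386 per library, about 4.1 for each fragment, so they overstate the number of independent reads. This ratio differed between genes. In R6/2-T replicate 1, Adora1 had 10780 estimated counts on 5097 fragments and Adora2a 19075 on 4761 fragments. The authors also deposited a signal (columns headed Cuffdiff, per the file headers), in which fragment counts were put on a shared scale. Dividing it by the value of 1 fragment gave whole numbers within 0.05 for 97.2% to 97.6% of low values (up to 200 fragments), and these fragments were tested as an alternative. The deposited FPKM give the levels.

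The design had assumed plain counts, and the estimated counts were tested the same way. edgeR 4.0.16 in R 4.3.3 (quasi-likelihood F test, TMM scaling, default filter with a minimum count of 10) was fitted to all 12 libraries as 4 group means, with two-sided tests and Benjamini-Hochberg adjustment over 23453 genes at 0.05. SE is the log2 change divided by the square root of F. The method was tested on simulated data. Alternatives were RLE size factors, no filter, DESeq2 1.42.0, recovered fragments, a replicate block, the 2 compared groups alone, limma 3.58.1 on log2(FPKM + 0.1), with and without a filter, or log2(FPKM + 1), and leaving out each library. The filter for limma kept genes of at least 0.1 FPKM in 3 libraries.

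The 10 genes were named in every comparison, with up to 4 called genes by smallest p of each of 5 lists, list genes that give a range, and the 5 genes most like Adora2a and Adora1. These were taken among genes averaging at least 1 log2 CPM. Members and lists were chosen with earlier results of these data known. Of 27 gene names stored as dates, 26 were matched by identifier. Coordinates equal those of GENCODE M21 for 8 of 10 members and differ by at most 146 bases for the others. The sequences are from RefSeq. One microglia marker is not reported here, and the marker sums leave it out.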

Additional observations from a re-analysis of the deposited data

How the results depend on the processing

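The count of genes called in R6/2-C against WT-C, 2131 in the reported fit, was 3471 with DESeq2, 3263 with recovered fragments, 1199 with a replicate block and 454 with those 2 groups alone (145 higher and 309 lower, against 1142 and 989), and 803 to 2256 without 1 library (at most 921 without any but R6/2-C replicate 2). RLE size factors gave 946 higher and 1007 lower. In R6/2-T against R6/2-C, 16 became 1684 with DESeq2, 505 with recovered fragments, 4 with the block, 7 with 2 groups, 84 with limma on log2(FPKM + 0.1), 54 on log2(FPKM + 1), and 2 to 1197 without 1 library, the highest without R6/2-C replicate 2. Of the 10 adenosine genes, 2 were called there by DESeq2 and 1 with recovered fragments, 0 to 0 without 1 library. In WT-T against WT-C, 1 became 2 with no filter, 114 with DESeq2, 4 with recovered fragments, 3 or 2 with limma at + 0.1 or + 1, 10 without its filter, and 1 to 11 without 1 library, with 0 to 0 of the 10. In R6/2-T against WT-T, 5304 became 2760 to 4812 without 1 library (2760, 3149 and 3399 without R6/2-T replicates 1 and 3 and WT-T replicate 2), and the 4 calls among the 10 became 2 with each of the 3 limma settings and 2 to 4 without 1 library. In R6/2-C against WT-C those calls were 2 to 3 without 1 library. The interaction had 1 call, against 2 with no filter, 190 with DESeq2, 0 with recovered fragments, 0 with the block, and 0 to 29 without 1 library. R6/2-C replicate 2, whose removal gave 1197 calls in R6/2-T against R6/2-C, had the highest choroid plexus sum of all libraries (1218 FPKM). The cause of these differences was not tested.

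Replicate numbers did not pair the libraries (r of same-numbered deviations −0.25 to 0.20 over 18 pairs), and the block changed no call of the 10 genes. Log2 changes near 0 changed sign. For Adk in R6/2-C against WT-C it was 0.00775, 0.00737 and 0.00775 with limma at + 0.1, + 1 and without a filter. For Slc29a2 in R6/2-T against R6/2-C it was −0.0174 with recovered fragments, −0.00083 with 2 groups, and −0.0359, −0.0295 and −0.0359 with limma. In WT-T against WT-C limma gave −0.000589, −0.000557 and −0.000589 for Adora1 and −0.0333, −0.0277 and −0.0333 for Nt5e. Entpd1 in the interaction was −0.15 with recovered fragments. Without 1 library, ranges that crossed 0 were −0.14 to 0.099 (Adk, R6/2-C against WT-C), −0.0496 to 0.069 (Slc29a2, R6/2-T against R6/2-C), −0.21 to 0.16 (Entpd1, R6/2-T against R6/2-C), −0.053 to 0.087 (Adora1), −0.10 to 0.11 (Nt5e) and −0.11 to 0.025 (Slc29a1), the last 3 in WT-T against WT-C. In R6/2-T against WT-T they were −0.0064 to 0.17 (Adk), −0.088 to 0.22 (Nt5e) and −0.13 to 0.11 (Slc29a2), and in the interaction −0.19 to 0.14 (Adora2b), −0.041 to 0.22 (Adk), −0.73 to 0.14 (Ada) and −0.23 to 0.012 (Slc29a2).

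Ada rested on 8 to 73 fragments per library, and 3 libraries per group limit every comparison.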
